A study of Rattus norvegicus with 12 samples.

Results

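The double knockdown of Yap and Wwtr1 was compared with knockdown of Yap alone in cultured cardiac fibroblasts of newborn rats, so that the only intended difference was the addition of siRNA against Wwtr1. The comparison used 6 of the 12 libraries of the series, 3 with Yap siRNA and 3 with both siRNAs, and every gene whose mean over the 12 libraries reached 10 normalized counts, which left 11871 of the 12271 genes listed. The cells were primary fibroblasts from the heart ventricles of Sprague Dawley rats on postnatal day 2, grown in medium with serum. An siRNA, or small interfering RNA, directs the breakdown of transcripts that it matches. Per the labels, each target gene received a pair of different siRNAs, each at 25 nM, and RNA was taken 48 hours after transfection, whereas the study's methods count these 48 hours from a change of medium that followed the transfection. The control libraries of the series received universal negative siRNA, and the remaining group received siRNA against Wwtr1 alone. The siRNA label of the double knockdown libraries names only the Wwtr1 siRNAs, so their group was taken from the titles. Whether the total dose of siRNA was equal in cells given siRNA against 1 gene and against both genes is not stated in the sources used here. The cells were not a purified clone but a primary culture, and the replicates came from separate litters per the study's methods. The series design text calls the cells myocytes, whereas the labels call them fibroblasts.

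Yap (gene Yap1) and its paralogue Wwtr1, better known as Taz, are transcriptional coactivators that carry no DNA-binding domain and reach DNA mainly through the TEAD transcription factors. The Hippo kinases Lats1 and Lats2 phosphorylate both proteins and keep them out of the nucleus, whereas a stiff matrix and a tense cytoskeleton favour their entry. In cardiac fibroblasts these proteins are known for driving the change into matrix-producing, contractile myofibroblasts. Because the proteins can stand in for one another, the effect of losing Wwtr1 may depend on whether Yap is present, which is the question that this comparison addresses.

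The libraries held 33.9 to 41.1 M recovered reads each, with means of 35.0 ± 1.05 M (SD, n = 3) for Yap siRNA and 38.8 ± 3.84 M (SD, n = 3) for the double knockdown. Double knockdown replicate 3 stood apart from replicates 1 and 2: its pairwise chi-square per gene against them was 122 and 126, while the other pairs within both groups lay between 29.4 and 46.5. The summed level of 17 macrophage and leukocyte markers was 26853 to 39300.3 normalized counts with Yap siRNA and 9728, 19076 and 64739 in double knockdown replicates 1, 2 and 3. Results are therefore also given without replicate 3 where it moved them. Unless a library is named beside it, a gene described here with values as having risen or fallen kept that call in each of 12 leave-one-out fits, every one of which omits 1 library. Where values of a gene are set against each other, the first 3 are Yap siRNA replicates 1, 2 and 3 and the last 3 the same replicates of the double knockdown.

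Transcripts of both siRNA targets were compared before other genes. Wwtr1 was 2134, 2499.5 and 2374 normalized counts in replicates 1, 2 and 3 with Yap siRNA and 818, 731 and 1056 in the double knockdown. The groups did not overlap, and the double knockdown mean was 62.8% below that with Yap siRNA, a log2 difference of -1.44 (SE 0.13, limma adjusted p 0.000121). With Wwtr1 siRNA alone it was 524, 550 and 637, so the double knockdown held more Wwtr1 transcript than the single one: it was 63.9% below the negative siRNA mean in the former and 76.3% below it in the latter. Yap1 was 532, 576 and 625 normalized counts with Yap siRNA and 713, 739 and 1474 in the double knockdown, while the controls held 3042, 3776 and 2984. All 3 double knockdown libraries lay above all 3 Yap siRNA libraries, and replicate 3 held the most. The log2 difference of 0.67 (SE 0.22, limma adjusted p 0.0623) did not pass the threshold of 0.05. It was 0.33 (adjusted p 0.0581) without replicate 3, and it was past the threshold once double knockdown replicate 1 was omitted (0.86, adjusted p 0.0369) or its replicate 2 (0.83, adjusted p 0.0486). The groups compared may thus differ in Yap1 as well as in Wwtr1.

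**Figure D1:**
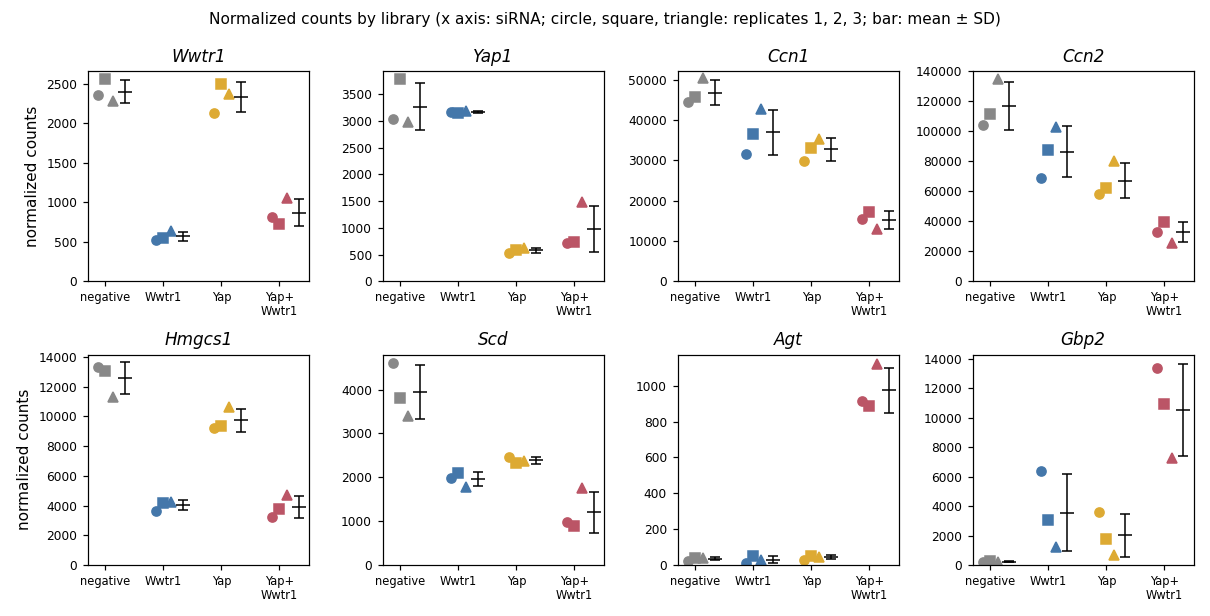
Normalized counts (y axis, linear, from 0) of 8 genes by siRNA group (x axis), with circles, squares and triangles for replicates 1, 2 and 3 and a bar for the mean ± SD. Wwtr1, Ccn1, Ccn2, Hmgcs1 and Scd lay lower, and Agt and Gbp2 higher, in all 3 double knockdown libraries than in all 3 Yap siRNA libraries.

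Addition of Wwtr1 siRNA changed 1637 genes (13.8% of those tested), of which 811 rose (6.83%) and 826 fell (6.96%), and the counts of list members given below stand against these shares. Most changes were modest: the median absolute log2 difference of the called genes was 0.54, 335 of them differed by more than 2-fold, and 70 by more than 4-fold. Of these 70, 63 rose and 7 fell, and 32 had a mean under 100 normalized counts. Without double knockdown replicate 3 the test called 1873 genes (854 higher, 1019 lower), and 1315 of the 1637 kept their call and direction. Leaving out Yap siRNA replicate 3 gave 758 genes, 740 of them among the 1637, and leaving out double knockdown replicate 1 gave 1063. Over 4-fold, the count was 42 without Yap siRNA replicate 3. A p-value here sets a difference against the spread of libraries within groups, estimated over all 12 libraries, the negative and Wwtr1 siRNA libraries included. With only the 6 compared libraries fitted, 774 genes were called. Differences are on the log2(normalized count + 1) scale, which understates the change of genes with low counts.

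Among genes with a mean of at least 100 and no overlap between the groups, the 10 largest rises included those of C6 and Cxcl11, which are given below among complement and chemokines. Agt encodes angiotensinogen, the precursor of the angiotensin peptides. It stood at 30.7, 52.5 and 46.1 normalized counts with Yap siRNA and at 917, 889 and 1119 in the double knockdown, a log2 difference of 4.49 (SE 0.43, limma adjusted p 0.000179). It was as low in the remaining groups, with 24.6, 40 and 37.2 after negative siRNA and 11.5, 50 and 30.5 after Wwtr1 siRNA alone. Lrrc4, a synaptic adhesion protein, went from 44.1, 27.8 and 11.5 to 399, 419 and 780.1 (4.33, SE 0.49, adjusted p 0.000366). Tmem178a, a membrane protein of the endoplasmic reticulum, went from 132, 118 and 68.1 to 1168, 1179.8 and 1983 (3.76, SE 0.32, adjusted p 0.000117). The separation of the groups in these genes was fixed by the way they were chosen. Agt, Lrrc4 and C6 reached a mean of 100 through their double knockdown libraries alone. The same may hold for other genes of this paragraph that were low with Yap siRNA. Prg4, the lubricating proteoglycan of joints, was 83, 114 and 58.7 with Yap siRNA and 861, 724 and 1981 in the double knockdown (3.69, SE 0.43, adjusted p 0.000427). Chi3l1, a chitinase-like glycoprotein secreted in inflammation, was 268, 97.5 and 62.8 against 1662, 1022 and 1958 (3.65, SE 0.59, adjusted p 0.0025), or 4.24 on the log2 scale without Yap siRNA replicate 1. Double knockdown replicate 3 was the highest library in the next 2 genes. Tac3, the precursor of neurokinin B, was 38.9, 32.1 and 10.5 against 120.3, 161 and 1030.2 (3.46, SE 0.69, adjusted p 0.00768), and 2.50 without double knockdown replicate 3. Serpina3n, a serine protease inhibitor, was 56.3, 24.6 and 22 against 408, 247 and 1018 (3.86, SE 0.91, adjusted p 0.0168), and lost its call without Yap siRNA replicate 2 (3.69, adjusted p 0.0503) or replicate 3 (3.61, adjusted p 0.0677).

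The largest falls held a transcription factor, a collagen and a growth factor. Gata3, a zinc finger transcription factor, was 488, 514 and 705 normalized counts with Yap siRNA and 107, 155 and 126 in the double knockdown, a log2 difference of -2.12 (SE 0.21, limma adjusted p 0.000197). Zbtb7c, another zinc finger factor, went from 746, 831 and 841 to 196, 291 and 311 (-1.62, SE 0.16, adjusted p 0.000204), and Nfe2l3, a bZIP transcription factor, from 87.1, 57.8 and 91.1 to 11.9, 21.7 and 34.2 (-1.84, SE 0.37, adjusted p 0.00823). Gdf6, a ligand of the BMP family, went from 1943, 1852 and 3157 to 865, 704 and 665 (-1.60, SE 0.21, adjusted p 0.000712). Adamtsl3, a secreted ADAMTS-like matrix protein, went from 3900.4, 5569 and 4274 to 1425, 1349.6 and 1421 (-1.69, SE 0.23, adjusted p 0.000857). Kcnv2, a potassium channel subunit, went from 535, 482 and 565 to 136, 100.3 and 339.6 (-1.65, SE 0.36, adjusted p 0.0108). Smaller falls depended on 1 library: Omd, the proteoglycan osteomodulin, fell by 1.52 on the log2 scale (adjusted p 0.0153) but not without double knockdown replicate 2 (-1.26, adjusted p 0.058), and Epyc, the proteoglycan epiphycan, fell by 1.51 (adjusted p 0.0145) but not without Yap siRNA replicate 3 (-1.19, adjusted p 0.0676).

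Most CCN genes, a family that includes the well known Yap and Wwtr1 targets Ccn1 and Ccn2, fell when Wwtr1 siRNA was added. Of the 5 tested CCN genes, which encode matricellular proteins, 4 fell and none rose, where 6.96% of all genes tested fell, with a list median of -1.11 on the log2 scale against 0.0093 over all genes tested. Ccn1 was 29779, 33073 and 35326 normalized counts with Yap siRNA and 15553, 17224 and 12848 in the double knockdown, a log2 difference of -1.11 (SE 0.13, limma adjusted p 0.000366). Ccn2, long known as connective tissue growth factor, was 58479.7, 62474 and 80257 against 33133, 39349 and 25769 (-1.04, SE 0.19, adjusted p 0.00411). Both genes had already been lower with Yap siRNA than with negative siRNA, where Ccn1 was 44368, 45692 and 50346 and Ccn2 104083, 111609 and 134840.2. Ccn3 was 10274, 10968 and 18193 with Yap siRNA and 6275, 5650 and 4533 in the double knockdown (-1.22, SE 0.24, adjusted p 0.00695), and Ccn5 was 19029, 13741 and 18413 against 7182, 7170.2 and 8411 (-1.16, SE 0.15, adjusted p 0.000797). In each of these 4 genes the highest double knockdown library lay below the lowest Yap siRNA library. Ccn4 was 862, 1028 and 849 against 1324, 921 and 942, with overlapping groups and a log2 difference of 0.20 (adjusted p 0.41). In 15 promoters that RefSeq (build GRCr8) gives for tested CCN genes and members of a published Yap/Taz target signature, the letters GGAATG, the core of the site bound by TEAD factors, were found on either strand in 6, against 11.2% of the 9390 promoters of tested genes. The promoter windows of the 3 called genes with the largest falls among those that hold the letters are shown because their transcripts carry this result. Each runs from 250 bases before to 50 bases after the annotated start, in the direction of the gene, and capitals mark GGAATG or its reverse complement CATTCC.
Ccn1 (GRCr8, chr2:237225640-237225939, minus strand): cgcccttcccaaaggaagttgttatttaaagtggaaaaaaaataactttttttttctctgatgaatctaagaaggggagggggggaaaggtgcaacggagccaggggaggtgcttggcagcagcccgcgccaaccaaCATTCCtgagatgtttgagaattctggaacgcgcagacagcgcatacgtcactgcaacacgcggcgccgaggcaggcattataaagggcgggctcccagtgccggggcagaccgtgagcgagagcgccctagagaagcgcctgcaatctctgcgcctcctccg
Ccn2 (GRCr8, chr1:22624565-22624864, minus strand): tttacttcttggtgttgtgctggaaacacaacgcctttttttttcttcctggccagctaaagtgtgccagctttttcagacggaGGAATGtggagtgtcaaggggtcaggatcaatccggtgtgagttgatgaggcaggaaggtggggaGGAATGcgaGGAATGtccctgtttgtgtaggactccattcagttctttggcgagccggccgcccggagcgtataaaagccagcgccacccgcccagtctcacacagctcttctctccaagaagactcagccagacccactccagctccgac
Amotl2 (GRCr8, chr8:112182376-112182675, plus strand): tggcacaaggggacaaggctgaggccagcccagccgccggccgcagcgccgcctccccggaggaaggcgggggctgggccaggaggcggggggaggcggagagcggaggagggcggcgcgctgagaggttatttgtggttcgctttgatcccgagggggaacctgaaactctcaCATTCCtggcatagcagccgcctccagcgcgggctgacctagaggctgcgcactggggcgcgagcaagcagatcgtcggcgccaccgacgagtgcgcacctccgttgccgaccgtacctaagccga
Ccn2 held the letters 3 times, beginning at -166, -101 and -92 from the start, whereas Ccn1 held them once at -113 and Amotl2 once at -76. A match of letters describes the sequence and shows no binding.

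Outside the CCN family, 7 of 18 tested members of the Yap/Taz signature fell and 2 rose (median -0.32). Amotl2, a scaffold that binds and restrains Yap, was 9169.6, 10267 and 11321 normalized counts with Yap siRNA and 4105, 4235 and 4625 in the double knockdown, a log2 difference of -1.24 (SE 0.11, limma adjusted p 0.000117). Ankrd1, a nuclear ankyrin repeat protein of muscle, was 7596, 7939 and 8876 against 3277, 5028 and 4066 (-0.999, SE 0.14, adjusted p 0.00118). Neither gene's groups overlapped. Myof, Dock5, Nuak2, Ajuba and Crim1 also fell, Crim1 by 0.78 on the log2 scale, a call lost without Yap siRNA replicate 3 (-0.68, adjusted p 0.0847), as was that of Ajuba (-0.41, adjusted p 0.0705). Of the members that rose, F3 (tissue factor) had a log2 difference of 0.82 and Gadd45a, a stress-induced growth arrest protein, of 0.66; F3 kept its call in 3 of the 12 leave-one-out fits and Gadd45a in 6. Neither was called without double knockdown replicate 3, Yap siRNA replicate 2 or 3, negative siRNA replicate 2 or Wwtr1 siRNA replicate 2. Among 16 Hippo kinases, adaptors and TEAD partners, 3 fell: Wwtr1 itself, Mob1a and Wwc2. None rose, but Yap1 was called higher without double knockdown replicate 1 or 2, as given above, and Vgll4, a TEAD partner, without Wwtr1 siRNA replicate 1 (0.37, adjusted p 0.0449). Wwc2, an upstream adaptor of the Lats kinases, was 4476, 5410.3 and 4999 against 3123, 2950 and 2985 (-0.71, SE 0.076, adjusted p 0.000246). Mob1a, the coactivator of those kinases, was 4261, 4207 and 4556 against 2541, 3132 and 3819; its log2 difference of -0.48 (adjusted p 0.025) lost the call without Yap siRNA replicate 1 (-0.49, adjusted p 0.0507) or 3 (-0.44, adjusted p 0.0957) and without double knockdown replicate 1 (-0.33, adjusted p 0.0698) or 2 (-0.48, adjusted p 0.0621).

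**Figure D2:**
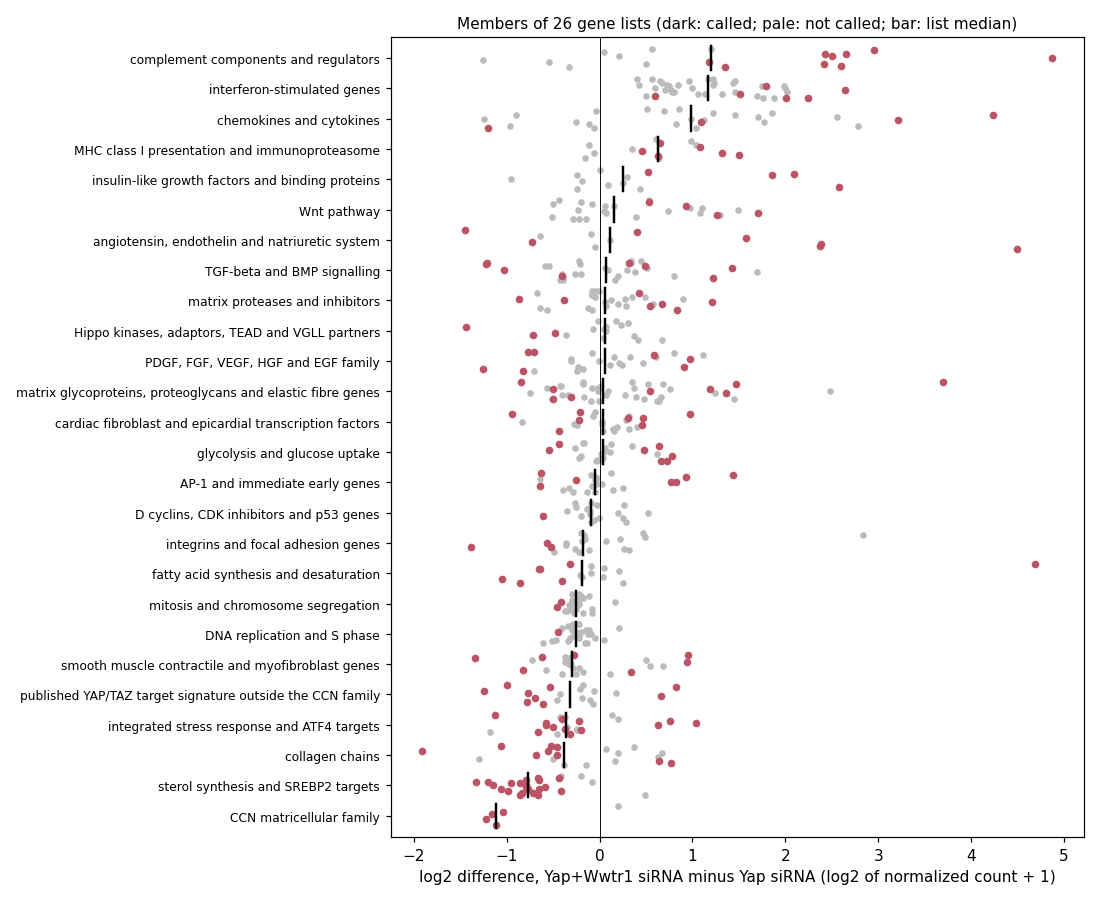
Log2 difference between the double knockdown and Yap siRNA (x axis) for each tested member of 26 gene lists (y axis, ordered by median). Dark points were called, pale points were not, and black bars are list medians, which ran from -1.11 for the CCN family to 1.20 for complement.

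Several collagen chains fell and some rose. Of 19 tested collagen chains, 7 fell and 2 rose (median -0.38). Col11a1, a chain of the minor fibrillar collagen XI, was 3770.3, 4880.2 and 4984 normalized counts with Yap siRNA and 992, 959 and 1816 in the double knockdown, a log2 difference of -1.91 (SE 0.24, limma adjusted p 0.000608). Col14a1, a fibril-associated collagen, was 51239, 53089 and 62643 against 25938, 21621 and 33569 (-1.06, SE 0.15, adjusted p 0.00114). The groups of both genes stood well apart, as did those of the chains that rose. Col5a3, a regulator of fibril diameter, was 5382, 6484 and 6263 against 11093, 11402 and 8635 (0.77, SE 0.14, adjusted p 0.00398), and Col16a1, another fibril-associated collagen, was 9030.3, 11698 and 8887 against 14409, 13987 and 17798 (0.64, SE 0.13, adjusted p 0.0082). The number of chains that fell was 3 without Yap siRNA replicate 2 or 3 and 4 without double knockdown replicate 2, and the number that rose was 4 without Yap siRNA replicate 2. Of 42 glycoproteins, proteoglycans and elastic fibre genes, 5 rose and 4 fell (median 0.04), near the 6.83% and 6.96% of all genes tested. Prg4, given above, had the largest rise, and Thbs1, an activator of latent TGF-beta, the largest fall, from 68855, 85006 and 75252 to 47679, 49987 and 31909 (-0.84, SE 0.17, adjusted p 0.00744). The rises of Mgp (1.47) and Dcn (1.36) and the falls of Lox (-0.50) and Nid2 (-0.50) each lost their call in 4 to 10 of the 12 leave-one-out fits, and without double knockdown replicate 3 the list held 4 rises and 7 falls. Rises numbered 3 without Yap siRNA replicate 2 and 2 without replicate 3, and falls numbered 1 without Yap siRNA replicate 3 and 2 without Yap siRNA replicate 2, double knockdown replicate 1 or 2, Wwtr1 siRNA replicate 1 or 2 or any negative siRNA library.

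Of 28 matrix proteases and inhibitors, 5 rose and 2 fell, against 6.83% and 6.96% of all genes tested. Mmp2, a gelatinase abundant in fibroblasts, was 50243, 48170.3 and 42739 normalized counts with Yap siRNA and 82017, 71885 and 100050.2 in the double knockdown, a log2 difference of 0.84 (SE 0.11, limma adjusted p 0.001). Adamts4, an aggrecanase, was 528, 408 and 354 against 932, 885 and 1138 (1.21, SE 0.16, adjusted p 0.00087), and Mmp11, a stromal metalloprotease, was 2152, 1633 and 1655 against 2857, 2682 and 3055 (0.67, SE 0.14, adjusted p 0.00858). Each of these 3 genes was higher in all double knockdown libraries. Prss23, a secreted serine protease, fell from 7414, 7355 and 8359 to 4222, 5086 and 3513 (-0.86, SE 0.12, adjusted p 0.000914), and Mmp23 from 5944, 5577 and 5829.9 to 4083, 4688 and 4591 (-0.38, SE 0.071, adjusted p 0.00556). Without Yap siRNA replicate 3 the list held 3 rises, and without double knockdown replicate 3 it held 5 falls.

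Some integrin and focal adhesion genes fell. Itga11, the collagen-binding integrin chain of myofibroblasts, was 4614, 5826 and 7282 with Yap siRNA and 2041, 1889.8 and 3153 in the double knockdown, a log2 difference of -1.34 (SE 0.20, limma adjusted p 0.0014). Itga4, a fibronectin and VCAM1 receptor chain, was 2114, 3674 and 3261 against 1392, 1214 and 837 (-1.39, SE 0.23, adjusted p 0.00275), and Vcl, which links focal adhesions to actin, was 36296, 42556 and 45811 against 26902, 28511 and 16787 (-0.82, SE 0.17, adjusted p 0.00815). In all 3 genes the groups were separate. Of 20 integrin and focal adhesion genes, 3 fell and none rose, against 6.96% and 6.83% of all genes tested: Itga4, Itgb1 (-0.57, not called without Yap siRNA replicate 3, where it was -0.47 with adjusted p 0.0616) and Zyx (-0.52, not called in 4 of the 12 fits). Leaving out Yap siRNA replicate 3 left 1 fall, and leaving out double knockdown replicate 3 gave 2 rises. Of 24 contractile and myofibroblast genes, 4 fell, Itga11 and Vcl among them, and 3 rose, so that the list went both ways. The genes that rose were Des, Synpo2 and Mylk, with log2 differences of 0.95, 0.94 and 0.33, and each lost its call without Yap siRNA replicate 1. Mylk kept it in all other fits. Synpo2 also lost it without Yap siRNA replicate 3 or double knockdown replicate 1 or 2. Des also lost it without any other Yap siRNA or any double knockdown library, negative siRNA replicate 1, or Wwtr1 siRNA replicate 1 or 2. The counts were 1 rise and 2 falls without Yap siRNA replicate 3, and 1 rise without double knockdown replicate 1 or 2.

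Ace, Agt and both endothelin receptor genes rose. Of 11 tested genes of the angiotensin, endothelin and natriuretic systems, 5 rose and 2 fell, against 6.83% and 6.96% of all genes tested, and these counts were 5 and 2 without double knockdown replicate 3 as well. Besides Agt, Ace rose, which encodes the enzyme that makes angiotensin II: it was 314, 394 and 169 normalized counts with Yap siRNA and 1391, 1313 and 1630.4 in the double knockdown, a log2 difference of 2.38 (SE 0.31, limma adjusted p 0.000701). The angiotensin receptor gene Agtr1a was not called. Ednrb, an endothelin receptor, was 191, 167 and 129.9 against 586, 507 and 1982 (2.38, SE 0.45, adjusted p 0.00538), with the highest value in replicate 3, without which the difference was 1.76 (adjusted p 0.00351). Ednra, the other endothelin receptor, and Ece1, the endothelin-converting enzyme, also rose, the latter by 0.40 with its call lost without Yap siRNA replicate 3 (0.38, adjusted p 0.0545). A pair of vasoactive peptides fell. Edn1, endothelin 1, was 1078, 1239 and 1696 with Yap siRNA and 385, 564 and 511 in the double knockdown (-1.45, SE 0.24, adjusted p 0.00298), and Adm, the vasodilator adrenomedullin, was 2491, 2135 and 2869 against 1392, 1534 and 1566 (-0.73, SE 0.14, adjusted p 0.0051). Neither gene's groups overlapped, and both lay lower in every double knockdown library.

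Complement genes rose in part. Of 17 tested components and regulators, 9 rose, where 6.83% of all genes tested did, and none fell (median 1.20). Serping1, the inhibitor of the C1 complex, was the most abundant named member. It was 12514, 7382 and 3859.7 normalized counts with Yap siRNA and 44451, 32789 and 60571 in the double knockdown, a log2 difference of 2.65 (SE 0.45, limma adjusted p 0.00318). C4b, a component of the classical pathway, was 461, 365 and 101 against 1298, 1097 and 5607 (2.95, SE 0.71, adjusted p 0.019); the difference was 2.21 (adjusted p 0.0404) without double knockdown replicate 3 and 2.28 (adjusted p 0.0823) without Yap siRNA replicate 3. C6, a part of the membrane attack complex, was 54.3, 0 and 11.5 against 184, 107 and 863 (4.87, SE 1.24, adjusted p 0.024), and its call was lost without Yap siRNA replicate 2, where it is listed at 0 (3.30, adjusted p 0.0543), or replicate 3 (5.12, adjusted p 0.0609), and without double knockdown replicate 1 (5.11, adjusted p 0.0505) or 3 (3.998, adjusted p 0.0612). It kept the call at 6.19 without Yap siRNA replicate 1 and at 5.50 without double knockdown replicate 2. C1r, C1s, C1rl, C3, C4a and Cfb also rose; C1s, C3 and Cfb lost their call without Yap siRNA replicate 3 and C4a in 6 of the 12 fits. Reads of the near-identical C4a and C4b, and of the Gbp family, may have been split between copies. Replicate 3 was the highest double knockdown library in all 3 named members and also the library with the most macrophage marker transcript; without it, 7 members rose and 1 fell, and the median was 1.21, below the 1.30 of the interferon-stimulated genes in the same fit. A fall was also called without Yap siRNA replicate 1. Without Yap siRNA replicate 3, 3 members rose. The part of macrophages in these rises was not tested.

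Interferon-stimulated genes lay above the negative siRNA level in both groups and further above it in the double knockdown, though few passed the test. All 39 tested interferon-stimulated genes had a positive log2 difference (median 1.17), and in 34 of them the groups did not overlap, against 30.5% of all genes tested (3620 genes). The test called 6 of them: Gbp2, Gbp5, Bst2, Ifi47, Igtp and Irf1. The mean of the list relative to negative siRNA was 3.75, 3.31 and 2.40 on the log2 scale in Yap siRNA replicates 1, 2 and 3 and 4.40, 4.49 and 4.24 in the double knockdown. The double knockdown libraries thus lay close together above a wide range of Yap siRNA libraries, among which replicate 3 was lowest. Without Yap siRNA replicate 3 the median was 0.77 and none of the 39 was called; the count was 2 without Yap siRNA replicate 2 or without double knockdown replicate 1 or 2, and 14 without Wwtr1 siRNA replicate 3. Gbp2, a guanylate-binding GTPase induced by interferon gamma, was 3588, 1753 and 698 normalized counts with Yap siRNA and 13396, 10909.6 and 7246 in the double knockdown (2.64, SE 0.59, adjusted p 0.013; 2.02 with adjusted p 0.0551 without Yap siRNA replicate 3). Bst2, or tetherin, which holds virions at the cell surface, was 2464, 1903 and 1019 against 7141, 6719.5 and 6397 (2.00, SE 0.53, adjusted p 0.0282), and lost its call without Yap siRNA replicate 2 (2.09, adjusted p 0.0561) or 3 (1.64, adjusted p 0.118) and without double knockdown replicate 1 (1.96, adjusted p 0.0739) or 2 (2.00, adjusted p 0.0694). The letters GAAA, any 2 bases and again GAAA, the repeat bound by interferon-activated factors, were found on either strand in 18 of the 29 promoters of this list in RefSeq, against 2.91% of the 9390 promoters. The promoter of Gbp2 is shown because Gbp2 had the largest difference of the list, with capitals marking the reverse complement of these letters.
Gbp2 (GRCr8, chr2:234005477-234005776, plus strand): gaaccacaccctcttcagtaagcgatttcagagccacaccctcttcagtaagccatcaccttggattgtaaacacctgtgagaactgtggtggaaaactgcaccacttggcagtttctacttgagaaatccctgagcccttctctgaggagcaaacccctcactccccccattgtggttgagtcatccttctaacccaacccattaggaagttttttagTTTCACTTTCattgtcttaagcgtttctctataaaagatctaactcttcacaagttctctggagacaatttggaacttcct
The match began at -31 from the annotated start.

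Some genes of class I antigen presentation and some chemokines rose as well. Of 14 class I presentation and immunoproteasome genes, 6 rose and none fell (median 0.63). Tapbpl, a peptide-editing chaperone of class I molecules, was 1329.9, 1131 and 869 with Yap siRNA and 2434, 2414 and 2090.2 in the double knockdown, a log2 difference of 1.08 (SE 0.21, limma adjusted p 0.0066). Tap2, a peptide transporter subunit, was 1742, 1239 and 909 against 3199, 3402 and 2781 (1.32, SE 0.29, adjusted p 0.0113; 1.08 with adjusted p 0.0551 without Yap siRNA replicate 3). The groups of both genes were separate. The number that rose was 3 without Yap siRNA replicate 2, 1 without replicate 3, and 2 without double knockdown replicate 1 or 2. Of 25 chemokines and cytokines, 3 rose and 1 fell (median 0.99, and 0.47 without double knockdown replicate 3). Cxcl13, a B cell attractant, was 22.5, 15 and 11.5 against 246, 277 and 456 (4.23, SE 0.68, adjusted p 0.00246). Cxcl11, a ligand of the receptor CXCR3 induced by interferon, was 77.9, 69.6 and 13.6 against 389, 416 and 398 (3.21, SE 0.72, adjusted p 0.0126), or 2.43 without Yap siRNA replicate 3. Cxcl16, a membrane-bound chemokine, was 4393, 3031 and 2619.6 against 7558, 5806 and 7626 (1.09, SE 0.20, adjusted p 0.00435). Il15, a cytokine of natural killer cells, was 177, 260.2 and 411 against 98.5, 129.6 and 121 and fell by 1.20 on the log2 scale (adjusted p 0.021); its call was lost without Yap siRNA replicate 3 (-0.89, adjusted p 0.0879) or double knockdown replicate 1 (-1.08, adjusted p 0.0698). Counts in this list were 6 rises without Yap siRNA replicate 1 and 2 falls without double knockdown replicate 3.

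**Figure D3:**
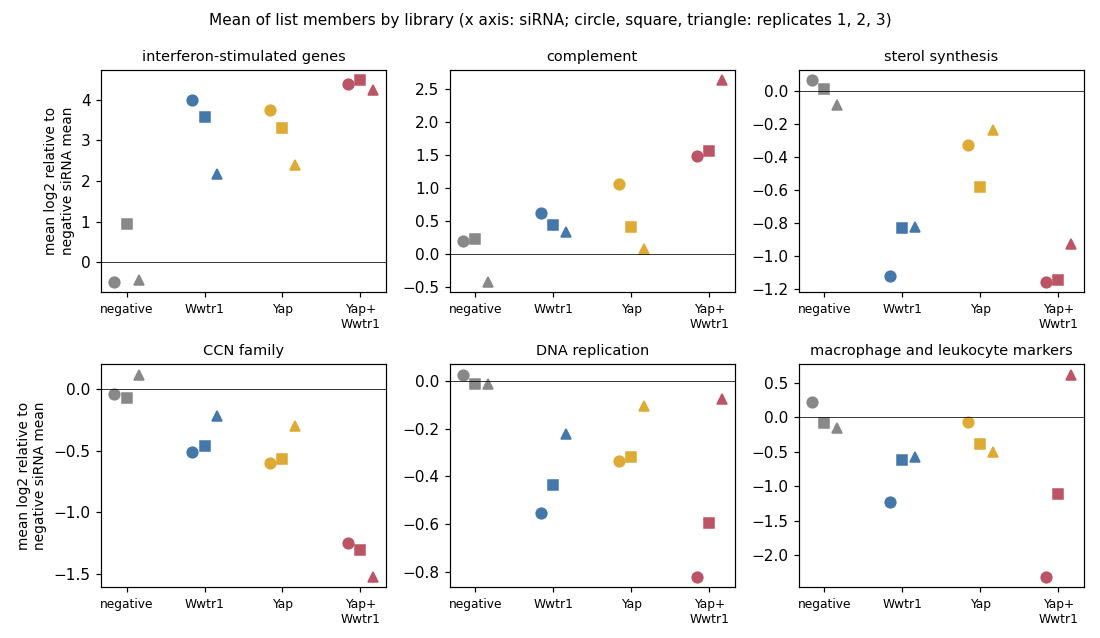
Mean over list members of log2(normalized count + 1) relative to the negative siRNA mean (y axis) by siRNA group (x axis) for 6 lists, with circles, squares and triangles for replicates 1, 2 and 3. The double knockdown libraries lay above all Yap siRNA libraries for interferon-stimulated and complement genes and below them for sterol and CCN genes, and they were spread widely for DNA replication genes and for macrophage markers.

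Most genes of sterol synthesis fell. Of 25 genes of the pathway and its SREBP2 regulon, which controls cholesterol supply, 21 fell and none rose (median -0.77), and the count that fell was 21 without double knockdown replicate 3 and 18 without Yap siRNA replicate 3. Hmgcs1, which makes HMG-CoA, was 9205, 9378 and 10634 normalized counts with Yap siRNA and 3246, 3766 and 4726 in the double knockdown, a log2 difference of -1.33 (SE 0.12, limma adjusted p 0.000144). Msmo1, a sterol methyl oxidase, was 4789.7, 4306 and 5229.7 against 1630.1, 2010.2 and 2726 (-1.20, SE 0.15, adjusted p 0.000592), and Acat2, which condenses acetyl-CoA at the head of the pathway, was 1475, 1395 and 1566 against 619, 581 and 826 (-1.15, SE 0.12, adjusted p 0.000246). In each of these genes replicate 3 was the highest double knockdown library and still lay below all Yap siRNA libraries. Srebf2, the gene of SREBP2 itself, was among the genes that fell. Hsd17b7 and Ebp were among the members without a call. The letters TCACNCCAC, a form of the sterol regulatory element, were in none of the 17 promoters of this list in RefSeq and in 1.17% of the 9390 promoters. Of 15 genes of fatty acid synthesis and desaturation, 6 fell and 1 rose. Scd, the desaturase that makes oleate, was 2472, 2319 and 2383 against 991, 886 and 1745 (-1.05, SE 0.20, adjusted p 0.00626), and Fads3, a sphingoid base desaturase, was 5956, 5586 and 7453 against 3096, 3747 and 3615 (-0.85, SE 0.13, adjusted p 0.00144). Both were lower in every double knockdown library. Fasn also fell. Leaving out Yap siRNA replicate 3 left 3 falls. The gene that rose, Mlxipl, is listed at 0 in all Yap siRNA libraries and at 11.9, 37.6 and 33.3 in the double knockdown, and its call (adjusted p 0.0386) was lost in 7 of the 12 leave-one-out fits.

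Of 13 insulin-like growth factor genes, 4 rose, where 6.83% of all genes tested did, and none fell. The binding proteins Igfbp4 and Igfbp5 rose, while Igfbp2 (-0.95), Igfbp6 (-0.18) and Igfbp7 (-0.24) were not called. Igfbp3, which is counted in the Yap/Taz signature, was not called either (-0.43). It was called lower without double knockdown replicate 3 (-1.06, limma adjusted p 0.000356). Igfbp5, a binding protein found in the matrix, was 1127, 2077 and 687 with Yap siRNA and 5705, 3632 and 6056 in the double knockdown, a log2 difference of 2.09 (SE 0.44, limma adjusted p 0.00972). Igfbp4 was 1289, 1022 and 793 against 3855, 3318 and 17511 (2.58, SE 0.51, adjusted p 0.00731), with by far the highest value in replicate 3, without which the difference was 1.82 (adjusted p 0.00229). Htra3, a serine protease, was 2845, 2950.4 and 1585 against 6429, 6405 and 15268 (1.85, SE 0.36, adjusted p 0.00681). Without double knockdown replicate 3 this list also held 2 falls, Igfbp2 (-1.80, adjusted p 0.0035) and Igfbp7 (-0.42, adjusted p 0.0272). Of 24 genes of the PDGF, FGF, VEGF, HGF and EGF families, 3 rose and 4 fell, against 6.83% and 6.96% of all genes tested. Pdgfa, a mitogen for mesenchymal cells, fell from 1706, 1485 and 1632 to 888, 962 and 867 (-0.83, SE 0.099, adjusted p 0.000468), and Nrg1, the neuregulin ligand of ErbB receptors, from 616, 577 and 832 to 382, 218 and 259.7 (-1.25, SE 0.23, adjusted p 0.00426). The rises, in Fgf1, Hgf and Egfr, were reduced to 1 without Yap siRNA replicate 3 or double knockdown replicate 1.

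In the TGF-beta and BMP pathway, 4 of 30 genes rose and 4 fell, against 6.83% and 6.96% of all genes tested. Bmp4 and Bmp6, ligands in this list, fell: Bmp4 was 1878, 1609.6 and 2378 with Yap siRNA and 831, 815 and 847 in the double knockdown, a log2 difference of -1.21 (SE 0.14, limma adjusted p 0.000435), and Bmp6 was 3465, 2796 and 2839.5 against 1597, 1483 and 1372 (-1.03, SE 0.11, adjusted p 0.000246). Of the extracellular BMP antagonists, Grem1 fell from 1272, 1579.6 and 2036 to 639, 994 and 509.8 (-1.22, SE 0.25, adjusted p 0.0084), while Bmper rose from 301, 351 and 278 to 599, 603 and 1027 (1.22, SE 0.21, adjusted p 0.00387). Tgfbr3, the coreceptor betaglycan, rose from 1334, 1343 and 804 to 3451, 2616 and 3089 (1.42, SE 0.25, adjusted p 0.00337). None of these groups overlapped. The list held 7 rises without double knockdown replicate 3, 7 falls without its replicate 2 and 2 rises without its replicate 1. Of 25 Wnt pathway genes, 4 rose and none fell. Sfrp4, a secreted Wnt antagonist, was 145, 115 and 146 against 348, 416 and 233 (1.26, SE 0.25, adjusted p 0.00683), and Wnt5a, a ligand of the noncanonical pathway, was 297, 233 and 212 against 424, 500 and 478 (0.93, SE 0.14, adjusted p 0.00159). Wnt5b (1.70) kept its call in 1 of the 12 fits and was 0.98 (adjusted p 0.096) without Yap siRNA replicate 2. Without Yap siRNA replicate 3 the list held 2 rises, without Yap siRNA replicate 1 also 2 falls, and without double knockdown replicate 3 it held 3 falls.

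Stress and early response genes were divided. Of 22 genes of the integrated stress response, in which the factor Atf4 turns on amino acid synthesis, 10 fell and 3 rose (median -0.36). Vldlr, a lipoprotein receptor, was 11811, 13592 and 14127 with Yap siRNA and 5879.8, 5337 and 6983 in the double knockdown, a log2 difference of -1.12 (SE 0.10, limma adjusted p 0.000121). Phgdh, the first enzyme of serine synthesis, was 8986, 9089 and 10608 against 5444, 6051 and 6707 (-0.66, SE 0.11, adjusted p 0.00294). Cebpb, a bZIP factor of inflammation and stress, rose from 6386, 4818 and 3926 to 9557, 10434 and 10539.7 (1.04, SE 0.14, adjusted p 0.00079). The falls numbered 4 without Yap siRNA replicate 3 or double knockdown replicate 1, and the rises 1 without Yap siRNA replicate 3. Of 23 AP-1 and immediate early genes, 4 rose and 3 fell. Nr4a1, an orphan nuclear receptor, rose from 1505, 1546 and 1229 to 3413, 3756 and 4382 (1.43, SE 0.19, adjusted p 0.000825). The falls, in Klf2, Klf4 and Klf6, lost their call in 3 to 8 of the 12 fits. None of the 3 was called without Yap siRNA replicate 2 or double knockdown replicate 1, and 1 of them was called without Yap siRNA replicate 1 or 3, Wwtr1 siRNA replicate 2 or double knockdown replicate 2. The rises numbered 2 without Yap siRNA replicate 3 or double knockdown replicate 2. Of 23 genes of glycolysis and glucose uptake, 5 rose and 2 fell. Slc2a1, the glucose transporter GLUT1, rose from 2477, 2178 and 2536 to 3237, 3811 and 4370 (0.66, SE 0.10, adjusted p 0.00177) and Aldoc, an aldolase, from 449, 352 and 358 to 634, 576 and 709.9 (0.73, SE 0.13, adjusted p 0.00436), whereas Pgam1, a phosphoglycerate mutase, fell from 13522, 12840.4 and 14224 to 8344, 8479.7 and 11283 (-0.54, SE 0.11, adjusted p 0.00735). The list held 3 rises without Yap siRNA replicate 1, and the other gene that fell, Eno2 (-0.43), lost its call in 7 of the 12 fits. Of 23 cardiac fibroblast and epicardial transcription factors, 4 rose and 4 fell. Prrx1, a mesenchymal homeobox factor, rose from 4808, 5170.4 and 4789.8 to 7213, 6559 and 6723 (0.47, SE 0.083, adjusted p 0.00377). The falls (Sox9, Tcf21, Gata4 and Gata6) numbered 0 without Yap siRNA replicate 2 or 3 or without double knockdown replicate 1, 1 without Yap siRNA replicate 1 or Wwtr1 siRNA replicate 2, and 2 without any negative siRNA library, Wwtr1 siRNA replicate 1 or double knockdown replicate 3; the rises numbered 1 without Yap siRNA replicate 3 and 2 without double knockdown replicate 2.

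The count of proliferation genes that fell depended on replicate 3. Of 29 DNA replication genes 1 fell, and of 28 mitotic genes 2 fell, shares near or below the 6.96% of all genes tested, with medians of -0.26 and -0.25 on the log2 scale. Without double knockdown replicate 3, 13 replication and 8 mitotic genes fell, and the medians were -0.46 and -0.43. The mean of the replication list relative to negative siRNA was -0.34, -0.32 and -0.10 with Yap siRNA and -0.82, -0.60 and -0.08 in the double knockdown. Replicate 3 of each group thus lay close to the negative siRNA level and the other libraries below it. The calls made with all libraries were Tyms (-0.45), Nuf2 (-0.46) and Kif23 (-0.42), and all 3 were lost without Yap siRNA replicate 3. Among 19 cyclin, CDK inhibitor and p53 genes, Ccnd3, a D cyclin that drives entry into S phase, fell from 12078, 10703 and 12490.3 to 6989.7, 8078 and 8091 (-0.61, SE 0.097, adjusted p 0.00226).

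Markers were used to check the cells. All 14 fibroblast markers were listed above 0 in every library, and Col1a2 alone stood at 808117, 885754 and 883116 normalized counts with Yap siRNA. Pdgfra, the PDGF receptor that marks cardiac fibroblasts, rose from 6999, 8013 and 5289 to 15774, 11844 and 18203 (1.17, SE 0.22, adjusted p 0.00538). Dcn was called higher as well, and Col1a2, Vim, S100a4 and Tcf21 lower; without Yap siRNA replicate 3 the 4 falls were not called, 2 of these 4 remained after leaving out Yap siRNA replicate 1 or 2 or double knockdown replicate 1 or 2, and 1 rise remained after leaving out any Yap siRNA library, Wwtr1 siRNA replicate 2 or double knockdown replicate 3. Transcripts of other cell types were present. The summed level of 18 cardiomyocyte markers was 54735 to 92887 normalized counts with Yap siRNA and 80313 to 105272 in the double knockdown, and none was at 0 in any library; Myh6, a cardiac myosin heavy chain, had a log2 difference of 1.17 that kept its call in 3 of the 12 fits. Of 17 macrophage and leukocyte markers none was called by limma (median -0.55, 1 with an unadjusted p under 0.05) or by edgeR (median -0.03), whereas 14 fell without double knockdown replicate 3 (median -1.29). Lyz2, a lysozyme of macrophages, was 11747, 8814 and 8235 with Yap siRNA and 2649, 5653 and 20209.8 in the double knockdown, so that replicates 1 and 2 lay below and replicate 3 above all Yap siRNA libraries. In bulk RNA, fewer cells of a type and less RNA per cell cannot be told apart. Of 14 endothelial markers 2 rose: Esam, a junction protein, from 242, 203 and 194 to 432, 406 and 357 (0.90, SE 0.19, adjusted p 0.00982), and Kdr (1.56), which lost its call without Yap siRNA replicate 3 (1.18, adjusted p 0.0657) or double knockdown replicate 1 (1.51, adjusted p 0.0519) or 2 (1.47, adjusted p 0.0579). Of 8 mural cell markers 3 rose, among them Rgs5, a pericyte marker, from 98.4, 92.1 and 76.5 to 154, 162 and 250.1 (1.05, SE 0.22, adjusted p 0.00956), and 1 rose without Yap siRNA replicate 3. Of 7 mesothelial markers, Upk1b (1.18) rose and Msln, mesothelin, fell from 687, 519 and 301 to 75.6, 151 and 239.6 (-1.76, SE 0.42, adjusted p 0.0181); Upk1b lost its call without 5 libraries, and Msln without Yap siRNA replicate 1 or 2 or double knockdown replicate 1. None of 5 Schwann cell markers was called by limma or edgeR, and none had an unadjusted p under 0.05.

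The effect of Wwtr1 siRNA in the presence of Yap siRNA was then set beside its effect in the absence of Yap siRNA, that is, Wwtr1 siRNA against negative siRNA, a comparison that shares no library with the first. Wwtr1 siRNA alone changed 1064 genes, of which 594 rose (5% of those tested) and 470 fell (3.96%). In all, 438 genes were called in both, 26.8% of the 1637 and 41.2% of the 1064, and 426 of them moved in the same direction. Across the 11871 genes Pearson's r of both log2 differences was 0.40, a description with no test since genes are not independent. Medians of the lists are given for both comparisons side by side. For sterol genes the median was -0.90 with 22 of 25 called lower without Yap siRNA, against -0.77 with 21 called in its presence, and the median difference was 0.17, with none called in the test of the difference. For interferon-stimulated genes the median was 3.00 with 36 of 39 genes called higher without Yap siRNA, against 1.17 with 6 called in its presence, and for 38 of the 39 the difference was below 0, with 1 called in the test of the difference. For CCN genes the median was -0.45 with 1 of 5 called lower, against -1.11 with 4 called, and all 5 differences were below 0, though none passed the test of the difference.

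**Figure D4:**
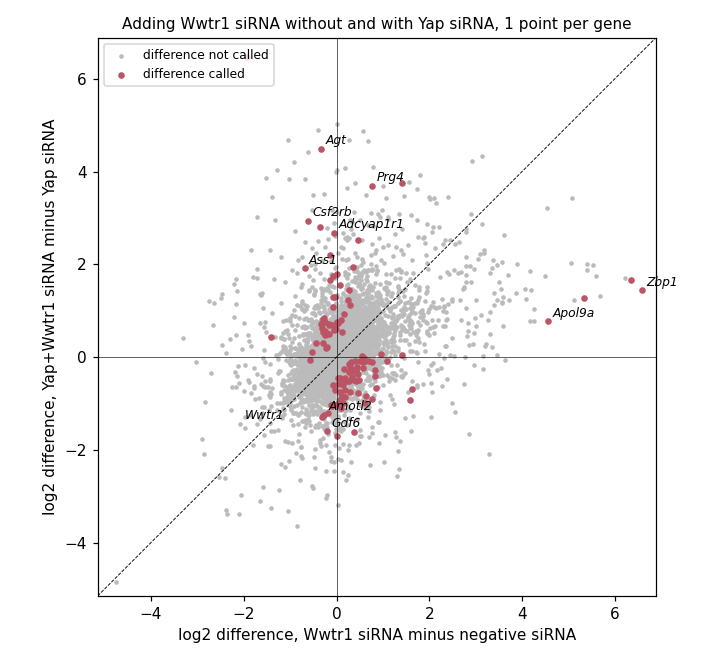
Log2 difference of each of 11871 genes for Wwtr1 siRNA against negative siRNA (x axis) and for the double knockdown against Yap siRNA (y axis), with the diagonal of equal effects dashed. The 122 dark points are genes for which the 2 effects differed in the limma test; Agt, Csf2rb, Adcyap1r1 and Ass1 lie high near 0 on the x axis, and Zbp1 and Apol9a lie far to the right.

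The test of the difference between both effects called 122 genes (1.03%), 50 with a higher and 72 with a lower effect in the presence of Yap siRNA, and 91 of them were also called in the double knockdown against Yap siRNA. This count moved with single libraries: it was 58, 57 and 79 without negative siRNA replicates 1, 2 and 3, 50, 31 and 67 without Wwtr1 siRNA replicates 1, 2 and 3, 68 and 32 without Yap siRNA replicates 2 and 3, 79 without double knockdown replicate 2 and 160 without its replicate 3. It also moved with the method, to 500 with DESeq2, 231 with the replicate number as a block and 60 without the trend. The largest positive differences were in genes that lay highest in the double knockdown. Csf2rb, the shared receptor chain for GM-CSF, IL-3 and IL-5, was 320.2, 311 and 258 normalized counts in the controls, 142, 192 and 256 with Wwtr1 siRNA and 231, 227 and 179 with Yap siRNA. In the double knockdown it was 1655, 1088 and 2362, far above every other library, with a difference of the effects of 3.56 on the log2 scale (adjusted p 0.00518). For Agt, whose values are given above, that difference was 4.83 (adjusted p 0.00524). Both were called in the test of the difference in all 12 leave-one-out fits. Adcyap1r1, the receptor of the neuropeptide PACAP, was 67.6, 87.8 and 69.1 with Yap siRNA and 427, 436 and 605 in the double knockdown, while the controls held 22.6, 63 and 34.1; it was 26.1, 40.8 and 41.7 with Wwtr1 siRNA alone (2.73, adjusted p 0.0257). Ass1, argininosuccinate synthase of the urea cycle, was 209, 153 and 92.2 against 554, 478 and 602, while the controls held 138, 282 and 114 and Wwtr1 siRNA alone gave 84.5, 115 and 107 (2.60, adjusted p 0.03). In both, every double knockdown library was the highest of the series, and the difference lost its call in 3 and 8 of the 12 fits.

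Genes whose effect was lower in the presence of Yap siRNA were of several kinds. Zbtb7c was 714, 536 and 560.2 with negative siRNA and 807, 751 and 783 with Wwtr1 siRNA, all 3 libraries of which lay above the controls, and the difference was -2.00 (adjusted p 0.00518). Cgref1, a secreted calcium-binding growth regulator, was 359, 376 and 438 with negative siRNA, 573, 663 and 758 with Wwtr1 siRNA, 829, 782 and 847 with Yap siRNA and 416, 542 and 378 in the double knockdown. It lay above the controls with each siRNA alone, while the double knockdown libraries overlapped them, a difference of -1.65 (adjusted p 0.00524). Amotl2 and Wwc2, both part of the Hippo network, had differences of -0.97 (adjusted p 0.0155) and -0.89 (adjusted p 0.00518): with Wwtr1 siRNA alone Amotl2 was 10182, 11606 and 13639 against 13706, 13894 and 15015 with negative siRNA, and Wwc2 6485, 6571 and 6784 against 5485, 6285 and 5814. These 4 genes were called in the test of the difference in all 12 fits. Apol9a, an interferon-induced apolipoprotein, was 85.2, 418 and 96.1 with negative siRNA and 5207, 4453 and 1958 with Wwtr1 siRNA. It was 3980.3, 3184 and 2009 with Yap siRNA and 5413, 5571 and 4225 in the double knockdown. Its difference of the effects was -3.78 (limma adjusted p 0.042), a call lost in 10 of the 12 fits. All Yap siRNA libraries lay above all controls. Zbp1, a sensor of nucleic acids induced by interferon, is listed at 0 in all negative siRNA libraries and was 196, 94.9 and 45.7 with Wwtr1 siRNA, 179, 153 and 37.7 with Yap siRNA and 237, 277 and 324 in the double knockdown.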

How the data were processed

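RNA sequencing of 12 libraries was analysed from 1 table. Per the study's methods, reads were trimmed (Trim Galore 0.6.5), aligned to the rat build rn6 (HISAT2) and assembled (StringTie2). The authors deposited DESeq2-normalized counts, a read count divided by a size factor, which serve as the expression signal here. Every value was a whole multiple of 1 read's worth (tolerance 0.01), so read counts were recovered for totals and count tests.

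Values were analysed as log2(normalized count + 1) in limma 3.58.1 (R 4.3.3, lmFit and eBayes with trend) over all 12 libraries, for genes with a mean of at least 10, with Benjamini-Hochberg adjustment over all 11871 genes and a threshold of 0.05. Fit and call were tested on simulated data, where 50% of 1.5-fold and 84% of 2-fold changes were recovered and 3.6% of calls were false. The simulation held no library that stood apart from its group. Alternatives were edgeR 4.0.16, DESeq2 1.42.0, other filters and pseudocounts, replicate blocks and leaving out each library.

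The comparison, members and gene lists were chosen with earlier results of these data known. Named were the 10 largest called rises and falls (mean at least 100, no overlap), up to 3 called members a list and direction, all CCN genes, and the 5 largest differences of effects each way; some of these genes are not reported here.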

Additional observations from a re-analysis of the deposited data

Results flagged for a closer look

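In 122 genes the change that accompanied Wwtr1 siRNA differed between cells with and without Yap siRNA, by the limma test of the difference itself. This count was 500 with DESeq2, 231 with a replicate block, 60 without the trend and 31 to 160 with 1 library left out. Wwtr1 transcript was 76.3% below the negative siRNA mean with Wwtr1 siRNA alone and 63.9% below it in the double knockdown. The part of this unequal knockdown in the differences was not tested. On the log2 scale, the named genes with a higher effect in the presence of Yap siRNA were Agt (4.83), Csf2rb (3.56), Prg4 (2.94), Adcyap1r1 (2.73), Ass1 (2.60), Tmem178a (2.35), Mmp2 (1.12) and Aldoc (1.05). The named genes with a lower effect were Zbp1 (-5.14), Apol9a (-3.78), Zbtb7c (-2.00), Adamtsl3 (-1.71), Cgref1 (-1.65), Gdf6 (-1.40), Bmp4 (-1.02), Prss23 (-0.98), Amotl2 (-0.97), Bmp6 (-0.94) and Wwc2 (-0.89). Zbp1 is listed at 0 in all negative siRNA libraries, so the pseudocount sets its value, which is no bound.

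The calls of Zbtb7c, Agt, Cgref1, Csf2rb, Wwc2, Amotl2 and Mmp2 were kept in each of the 12 leave-one-out fits. Those of Adamtsl3, Ass1, Tmem178a, Prg4, Apol9a, Bmp4 and Gdf6 were lost in 7 to 11 of them, and those of Zbp1, Adcyap1r1, Bmp6, Prss23 and Aldoc in 1 to 6.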

How the results depend on the processing

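Of the 137 called genes among those chosen for naming, none changed direction under any alternative, but 44 lost their call with only the 6 libraries fitted, 92 with the replicate block over these 6, 26 without the trend and 56 without Yap siRNA replicate 3. Genes called in the double knockdown against Yap siRNA numbered 774 when only these 6 libraries were fitted and 758 to 1873 when 1 library was left out, and edgeR gave 1588 (1565 of them among the 1637) and DESeq2 2193 (1623). Those over 4-fold numbered 38 with a mean of at least 100 and 42 to 96 with 1 library left out. The difference of effects gave 500 genes with DESeq2, 60 without the trend and 31 to 160 with 1 library left out. Yap1 was past the threshold at 0.75 with edgeR (adjusted p 0.0495) and 0.76 with DESeq2 (adjusted p 0.00722), and ran from 0.33 to 0.86 with 1 library left out.

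The correlation of both Wwtr1 siRNA effects was 0.33 with a pseudocount of 0.1, 0.48 with 10, 0.36 with no filter, 0.54 with a mean of at least 100, 0.36 with edgeR, 0.35 with DESeq2 and 0.35 to 0.44 with 1 library left out. Uncalled markers that changed sign included Lyz2 (0.17) and Cd68 (0.28) without double knockdown replicate 1, Cd68 with edgeR (0.0061) and DESeq2 (0.011), and Ngfr without Yap siRNA replicate 2 (-0.44) or double knockdown replicate 3 (-0.75), while without double knockdown replicate 3 Lyz2 was -1.29 and Cd68 -0.94. The cause of these changes was not tested.

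Same-numbered libraries of the 2 groups did not deviate together (r of -0.13, 0.063 and -0.059), so the replicate number was not taken as a pairing. This check left out the negative and Wwtr1 siRNA libraries, which the fit and the difference of effects also used. Summed cardiomyocyte markers were lowest in replicate 3 of every group: 47425 (negative), 54735 (Yap), 51519 (Wwtr1) and 80313 (double knockdown) normalized counts. Summed contractile genes were highest in replicate 3 of every group but the double knockdown, where that library was lowest. Whether all groups share a replicate effect was not tested. With the replicate number as a block over 12 libraries, 2123 genes were called (1603 of them among the 1637). The difference of effects gave 231 genes with this 12-library block. With the 6-library block, 235 genes were called and 28 genes were over 4-fold.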
